A study of Mus musculus with 12 samples.

Results

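The genes described here are 35 genes of fatty acid use in muscle. They were chosen by name for their roles in uptake, activation, the carnitine shuttle, beta oxidation, electron transfer and the fasting response. Their values were not the rule of choice, but earlier results of these data were known. Each of the 35 symbols matched 1 row of the deposited table, which holds 47729 genes, and all 35 passed the filter on low counts that left 14194 genes for testing. RNA sequencing had been carried out on 12 muscle samples of male mice on a C57BL/6 background, aged 5 months, in 4 groups of 3: NRF2 knockouts after treadmill exercise (KO treadmill), NRF2 knockouts without it (KO sedentary), C57BL/6 wild types after treadmill exercise (WT treadmill) and wild types without it (WT sedentary). NRF2 is the product of Nfe2l2 and the main transcription factor of the antioxidant response. The labels give neither the muscle, nor the exercise programme, nor the knockout allele, and they do not say that the 3 samples of a group came from separate animals, so the p-values rest on the spread among these samples alone, which may be technical.

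Long-chain fatty acids enter a muscle fibre through membrane and binding proteins, are joined to coenzyme A, pass into the mitochondrion as carnitine esters and are shortened there by the repeated steps of beta oxidation, whose electrons reach the respiratory chain through the electron transfer flavoprotein. Malonyl-CoA holds back the carnitine step. In fasting, and in exercise, fatty acids activate the nuclear receptors PPARα and PPARδ, which bind DNA with RXR partners and switch on many of these genes, and the orphan receptor ERRα with its coactivator PGC-1α acts on many of the same genes.

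Library totals ranged from 21232040 to 29990968 counts, and the correlation of log2 CPM between libraries from 0.985 to 0.993. Levels are in CPM, each count taken relative to the library total and its normalization factor. Nfe2l2 had 54 to 84 counts in the 6 KO libraries and 830 to 1275 counts in the 6 WT libraries, and its log2 fold change, KO over WT averaged over exercise, was -3.90 (SE 0.08, adjusted p = 5.36e-13). Fast skeletal muscle genes marked every group: Myh4, the myosin of the fastest fibres, averaged 35032 ± 4476 CPM in KO treadmill, 31266 ± 3362 CPM in KO sedentary, 31324 ± 1288 CPM in WT treadmill and 32119 ± 4779 CPM in WT sedentary libraries (SD, n = 3 each). Lanes 3 and 4 held libraries of both genotypes, whereas replicate 1 of each WT group was alone in lanes 7 and 8, where lane and genotype cannot be told apart. In bulk tissue, fewer cells of a type and less RNA per cell cannot be told apart either.

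The level of the genes per length of transcript spanned more than 3 orders of magnitude. On the scale of CPM per kilobase of exon, averaged over the 12 libraries, Pdk4, the kinase that shuts off pyruvate dehydrogenase, stood highest with 182 ± 60 (SD, n = 12). Fabp3, the fatty acid binding protein of heart and muscle cytosol, followed with 164 ± 37, Acot13, a mitochondrial thioesterase, with 151 ± 13, and Cd36, the fatty acid translocase of the plasma membrane, with 136 ± 20. The ranges of these 4 genes over the libraries overlapped, so their order is not firm. The lowest levels were those of Cpt1b, the muscle form of carnitine palmitoyltransferase 1, with 1.21 ± 0.13, and of Acot1, a cytosolic thioesterase, with 0.10 ± 0.04. The value of Cpt1b carries a limit: 81.4% of its exon bases also belong to the readthrough gene Gm44502 on the same strand, and the counting of reads that lie in both is not given in the sources used here. Etfb is under that limit too, with 58.2% of its exon bases shared with 2 other genes, chiefly Gm45233 on the same strand. Per-length levels moved by more than the spread between libraries for 22 of the 35 genes when the longest transcript replaced the union of exons.

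**Figure D1:**
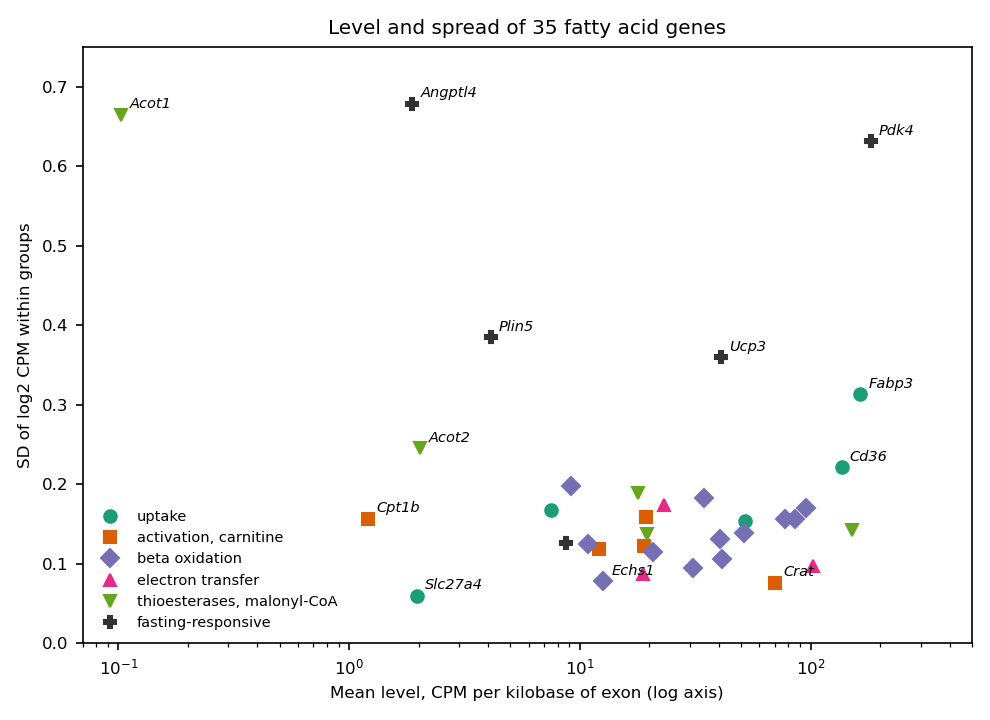
Mean level over 12 libraries in CPM per kilobase of exon (log axis) against the SD of log2 CPM within groups, for 35 genes marked by role. Most genes lie below an SD of 0.25, while Angptl4 (0.68), Acot1 (0.67) and Pdk4 (0.63) stand apart at the top.

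The spread within groups differed widely between genes. The SD of log2 CPM within groups, pooled over the 4 groups, had a median of 0.16 over the 35 genes and of 0.17 over all 14194 genes tested. Angptl4, a secreted inhibitor of lipoprotein lipase, had an SD of 0.68, above 98.9% of all genes, and Pdk4 had 0.63, above 98.3%. Plin5, a lipid droplet protein that tethers droplets to mitochondria, had 0.38 and Ucp3, a mitochondrial carrier of muscle, had 0.36. Acot1 had an SD of 0.67 on 3 to 18 counts per library, where counting error alone is large. At the other end Slc27a4, a fatty acid transport protein with acyl-CoA synthetase activity, had 0.06, in the lowest 2.58% of genes. That is less than counting error alone is expected to give at its 170 to 336 counts per library. Crat, the carnitine acetyltransferase, had 0.08. The 12 genes of beta oxidation lay between 0.08 for Echs1, the enoyl-CoA hydratase, and 0.20 for Hadhb, the thiolase subunit of the trifunctional protein.

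**Figure D2:**
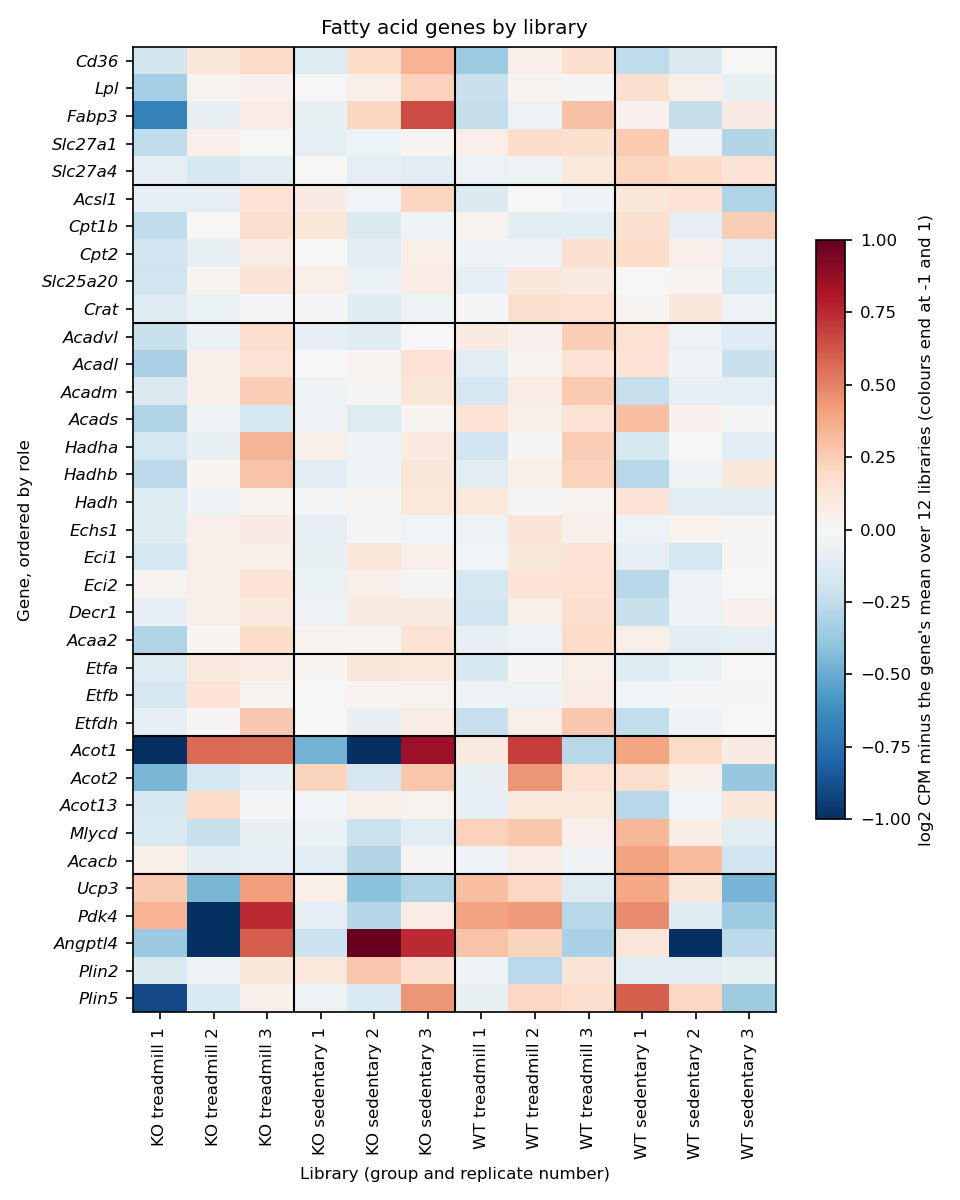
Difference in log2 CPM between each library and the mean of the gene over 12 libraries, with genes in rows by role and libraries in columns by group. KO treadmill replicate 1 is below the mean in 31 of 35 genes, and WT treadmill replicate 3 is above it in 28 of 35.

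In some libraries most of the 35 genes lay on the same side of their means, and libraries of the same group could differ in this. The share of all genes that did the same was not computed, so it cannot be called a trait of these genes. KO treadmill replicate 1 had the lowest level of all 12 libraries in 15 of the 35 genes and lay below the mean of the gene in 31. KO treadmill replicate 3, of the same group, lay above the mean in 28. Of the 12 genes of beta oxidation, all 12 were above their mean in WT treadmill replicate 3 and 11 were below it in KO treadmill replicate 1. KO treadmill replicate 1 also had the lowest level of the myoglobin gene Mb, 2790 CPM against 3342 to 4634 CPM in the other 11 libraries, and the highest level of the liver gene Alb, 19.9 CPM against 0.70 to 2.5 CPM. The summed level of 8 skeletal muscle markers, Mb among them, was not low there: 123380 CPM, where the 12 libraries ran from 109060 to 132090 CPM. What part these marker levels have in the values of this library was not tested.

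None of the 35 genes passed the test in any of the 7 comparisons made (edgeR's quasi-likelihood test, adjusted p under 0.05 over all genes). For KO against WT averaged over exercise, 0 of 35 were called, against 0.69% of all genes tested, and the smallest adjusted p was 0.104. An unadjusted p under 0.05 was reached by 5 of the 35, 1 with a value above 0 and 4 below, against 12.4% of all genes. The median log2 fold change was 0.01 over the 35 genes and 0.01 over all genes, with 19 genes above 0 and 16 below, where 53% of all genes were above 0. Leaving out 1 library at a time moved the median of the 35 between -0.03, with 10 genes above 0, without KO treadmill replicate 3 and 0.05, with 22 above 0, without KO treadmill replicate 1. The 95% intervals of single genes had a median half-width of 0.17 on the log2 scale, and the widest was 0.80. DESeq2 called 1 of the 35, Mlycd, against 1.66% of all genes.

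**Figure D3:**
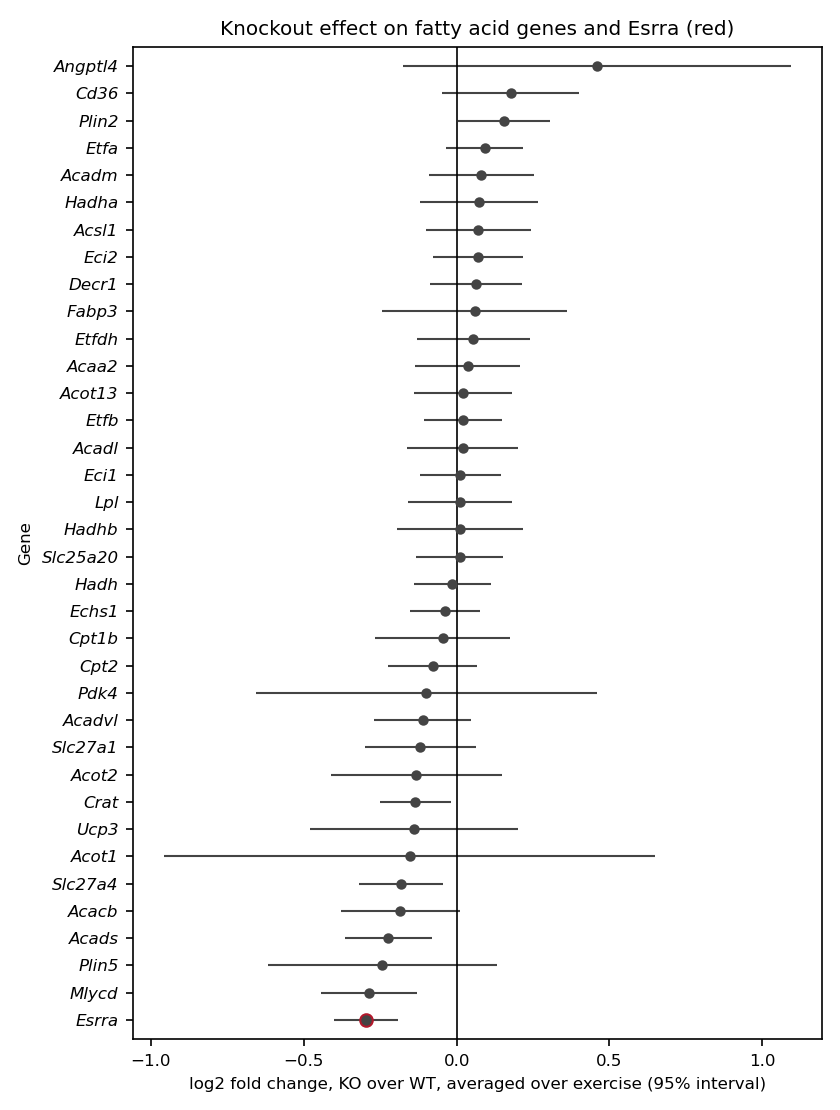
Log2 fold change of KO over WT averaged over exercise, with its 95% interval, for 35 fatty acid genes and for Esrra (red). The genes run from -0.29 (Mlycd) to 0.46 (Angptl4), and Esrra, at -0.30, is the gene shown that passed the test.

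Within sedentary mice, 0 of 35 genes were called for KO against WT (0.19% of all genes), with a smallest adjusted p of 0.509. An unadjusted p under 0.05 was reached by 5 of the 35, 2 with values above 0 and 3 below, against 7.65% of all genes. DESeq2 called none of the 35. The median log2 fold change was 0.06, with 21 of the 35 above 0, where 53% of all genes were above 0. Without WT sedentary replicate 3 it was 0.00 with 18 above 0, without KO sedentary replicate 3 it was 0.02 with 19 above 0, and without KO sedentary replicate 1 it was 0.09 with 21 above 0. No overlap between the 3 KO and the 3 WT libraries was seen for 3 genes that were higher in KO (6.47% of all genes) and for 1 that was lower (5.48%). The 3 were Plin2, the coat protein of lipid droplets, Acadm, the medium-chain acyl-CoA dehydrogenase, and Etfa, a subunit of the electron transfer flavoprotein, and the 1 was Slc27a4.

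In treadmill mice, 0 of 35 genes were called for KO against WT (0.162% of all genes), with a smallest adjusted p of 0.502. An unadjusted p under 0.05 was reached by 4 of the 35, all with values below 0, against 6.72% of all genes. DESeq2 called none of the 35. The median log2 fold change of the 35 was -0.04, with 10 above 0 and 25 below, where 51.7% of all genes were above 0. Single libraries decided this direction: without KO treadmill replicate 1 the median was 0.04 with 19 above 0, without KO treadmill replicate 3 it was -0.14 with 2 above 0, and without each WT treadmill library in turn it ran from -0.10 to -0.01. The 3 KO libraries lay below the 3 WT libraries for Slc27a1, Slc27a4, Acads, Mlycd and Acot2, or 5 of 35, and 7.16% of all genes showed this. The reverse, 3 KO libraries above the 3 WT libraries, was seen for 0 of 35 (5.88% of all genes).

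The treadmill comparisons called no gene of the table in edgeR: 0 of 35 and 0% of all genes in KO mice, in WT mice, and averaged over genotype. These fits, and the other values of this paragraph unless stated, did not pair libraries. In an alternative fit the WT libraries were paired by replicate number. That pairing was taken from their correlations and cannot be told apart from lane. With the pairs as a block in the 6 WT libraries 0 of 35 and 1 gene of the table were called. In KO mice 2 of the 35, Fabp3 and Angptl4, had an unadjusted p under 0.05, against 3.76% of all genes. In WT mice the count was 0 of 35 (2.17% of all genes), and averaged over genotype it was also 0 of 35 (4.15% of all genes). DESeq2 called none of the 35 in these 3 comparisons, and 1 gene of the whole table, averaged over genotype. The median log2 fold change of the 35 was -0.02 in KO mice, with 12 genes above 0, and 0.07 in WT mice, with 27 above 0, where 49.9% and 50.9% of all genes were above 0. All 12 genes of beta oxidation had log2 fold changes above 0 in WT mice, from 0.00 to 0.20, against 6 of 12 in KO mice, from -0.12 to 0.07.

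These counts of direction moved with single libraries, and in KO mice the majority changed sides. Without KO treadmill replicate 1, 24 of the 35 genes were above 0 in KO mice, in place of 12, and without KO treadmill replicate 3 there were 5. Without WT treadmill replicate 3, 19 of the 35 were above 0 in WT mice, in place of 27. The WT median was 0.01 there and stayed above 0 with each library left out. Without the libraries of lanes 7 and 8 it was 0.16, with 32 above 0. The difference between the responses, KO minus WT, was called for 0 of 35 genes and for 0% of all genes in edgeR, and DESeq2 also called 0. It reached an unadjusted p under 0.05 for 1 of the 35, Angptl4, against 1.9% of all genes. The median difference was -0.10 with 7 genes above 0 and 28 below, where 48.1% of all genes were above 0, and it was -0.03 with 24 below 0 without KO treadmill replicate 1. It stayed below 0 with each library left out, and without the libraries of lanes 7 and 8 it was -0.18 with 30 below 0.

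The genes of uptake held both abundant and scarce members. Cd36 had 424, 525 and 552 CPM in KO treadmill, 442, 549 and 616 CPM in KO sedentary, 375, 506 and 542 CPM in WT treadmill and 405, 438 and 486 CPM in WT sedentary libraries. The ranges of the 4 groups overlapped, and the log2 fold change of KO over WT averaged over exercise was 0.18 (SE 0.10, 95% interval -0.05 to 0.40, adjusted p = 0.518). Lpl, the lipase that frees fatty acids from circulating triglyceride, ranged from 427 CPM in KO treadmill replicate 1 to 632 CPM in KO sedentary replicate 3, and Slc27a1, a fatty acid transport protein of muscle, from 35.6 CPM in WT sedentary replicate 3 to 52.5 CPM in WT sedentary replicate 1.

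Fabp3 (chr4:130308595-130315463, plus strand, GRCm38) had 83.0, 126 and 139 CPM in KO treadmill, 126, 154 and 207 CPM in KO sedentary, 112, 127 and 162 CPM in WT treadmill and 136, 112 and 140 CPM in WT sedentary libraries. The lowest and the highest of the 12 values were thus both from KO mice, in KO treadmill replicate 1 and KO sedentary replicate 3, and the 2 KO groups overlapped. For KO treadmill over KO sedentary the log2 fold change was -0.49 (SE 0.20, adjusted p = 0.9999), and with lane as a term in the fit it was -0.66 with an adjusted p of 0.0256, which passed. Without KO sedentary replicate 3 the log2 fold change was -0.27 and without KO treadmill replicate 1 it was -0.29, neither of which passed. The summed level of 8 slow-fibre markers was 599 CPM in KO treadmill replicate 1, the lowest of the 12 libraries, and 906 CPM in KO sedentary replicate 3, with 992 CPM in WT sedentary replicate 3 as the highest. The part of slow fibres in the values of Fabp3 was not tested. Of the 50-base stretches of Fabp3 transcripts, 37.3% also occur in other genes, chiefly the pseudogene Fabp3-ps1, so its counts are uncertain.

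Slc27a4 (chr2:29802634-29817522, plus strand) had the smallest spread within groups of the 35 genes, on 170 to 336 counts per library. At such counts the counting error alone is expected to be larger than this spread. The closeness of the values is therefore no sign of a steady gene, and the lack of overlap below rests on it. It had 8.12, 7.77 and 8.04 CPM in KO treadmill, 8.68, 8.16 and 8.06 CPM in KO sedentary, 8.30, 8.38 and 9.32 CPM in WT treadmill and 10.1, 9.85 and 9.53 CPM in WT sedentary libraries. Every KO library lay below every WT library of the same exercise state, and in WT mice the 3 treadmill values lay below the 3 sedentary values (1 of 35, against 2.87% of all genes). Its log2 fold change for KO over WT averaged over exercise was -0.18 (SE 0.06, adjusted p = 0.263), so the difference did not pass over the whole table.

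Activation and the carnitine shuttle showed small differences. Acsl1, the main acyl-CoA synthetase of muscle, ranged from 165 to 235 CPM over the 12 libraries, Cpt2, the inner carnitine palmitoyltransferase, from 39.6 to 51.5 CPM, and Slc25a20, the carnitine-acylcarnitine carrier, from 50.8 to 63.6 CPM. Cpt1b had 3.40, 4.06 and 4.58 CPM in KO treadmill, 4.40, 3.66 and 3.92 CPM in KO sedentary, 4.15, 3.75 and 3.75 CPM in WT treadmill and 4.53, 3.81 and 4.79 CPM in WT sedentary libraries, with overlap between all groups and an averaged log2 fold change of -0.04 (95% interval -0.27 to 0.18).

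Crat, which buffers acetyl-CoA as acetylcarnitine, had 343, 359 and 373 CPM in KO treadmill, 371, 346 and 364 CPM in KO sedentary, 373, 422 and 419 CPM in WT treadmill and 384, 408 and 364 CPM in WT sedentary libraries. The highest KO treadmill library thus reached the lowest WT treadmill library, and the averaged log2 fold change was -0.14 (SE 0.05, adjusted p = 0.331). Crat (chr2:30400471-30415813, minus strand) lies on chromosome 2, as do Slc27a4 and Nfe2l2; whether this location bears on their values was not tested.

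Among the 12 genes of beta oxidation, 8 had log2 fold changes above 0 and 4 below for KO over WT averaged over exercise, from -0.22 for Acads to 0.08 for Acadm. Acads, the short-chain acyl-CoA dehydrogenase (chr5:115110299-115119346, minus strand), had 37.9, 45.1 and 42.0 CPM in KO treadmill, 45.8, 42.6 and 47.6 CPM in KO sedentary, 51.6, 48.9 and 51.8 CPM in WT treadmill and 57.7, 48.2 and 46.2 CPM in WT sedentary libraries. The KO treadmill values were all below the WT treadmill values, while KO sedentary replicate 3 exceeded WT sedentary replicate 3. In treadmill mice the log2 fold change was -0.28 (SE 0.09, adjusted p = 0.513) and -0.22 averaged over exercise (SE 0.07, adjusted p = 0.176).

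The other acyl-CoA dehydrogenases gave different signs. Acadm averaged 313 ± 42 CPM in KO treadmill, 307 ± 18 CPM in KO sedentary, 314 ± 46 CPM in WT treadmill and 273 ± 15 CPM in WT sedentary libraries (SD, n = 3 each). Acadvl, the very-long-chain enzyme, had an averaged log2 fold change of -0.11 (95% interval -0.27 to 0.05), and 42.9% of its exon bases overlap Dvl2 on the opposite strand, whose reads this library kit does not separate. Acadl, the long-chain enzyme, had 0.02 (95% interval -0.16 to 0.20).

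The later steps of the cycle and the auxiliary enzymes were as close. Averaged log2 fold changes were 0.07 for Hadha and 0.01 for Hadhb, the subunits of the trifunctional protein, -0.01 for Hadh, the short-chain hydroxyacyl-CoA dehydrogenase, -0.04 for Echs1, and 0.04 for Acaa2, the mitochondrial thiolase. For the enzymes that handle double bonds they were 0.01 for Eci1, 0.07 for Eci2 and 0.06 for Decr1. The 3 genes of electron transfer had values above 0 for KO over WT in each exercise state: averaged, Etfa had 0.09, Etfb 0.02 and Etfdh, the oxidoreductase that passes electrons to ubiquinone, 0.06. Each of these 95% intervals contained 0.

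The genes that set malonyl-CoA and acyl-CoA supply included the smallest p of the 35. Mlycd, malonyl-CoA decarboxylase, which removes malonyl-CoA and so favours carnitine entry (chr8:119394878-119411102, plus strand), had 51.7, 49.1 and 54.7 CPM in KO treadmill, 54.8, 49.6 and 53.2 CPM in KO sedentary, 67.2, 69.2 and 59.7 CPM in WT treadmill and 72.5, 60.4 and 53.0 CPM in WT sedentary libraries. All 6 KO libraries lay between 49.1 and 54.8 CPM, and 5 of the 6 WT libraries lay above them, WT sedentary replicate 3 being within their range. The averaged log2 fold change was -0.29 (SE 0.07, 95% interval -0.44 to -0.13, adjusted p = 0.104). It passed in DESeq2 (adjusted p = 0.0218) and in edgeR without WT sedentary replicate 3 (-0.34, adjusted p = 0.0261), the WT library within the KO range. In edgeR without any one of the other 11 libraries it did not pass (adjusted p up to 0.270). The log2 fold change stayed between -0.34 and -0.22 with each library left out.

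Acacb, the mitochondrial acetyl-CoA carboxylase that makes malonyl-CoA, had 178, 157 and 160.2 CPM in KO treadmill, 158, 138 and 171 CPM in KO sedentary, 166, 179 and 166 CPM in WT treadmill and 225, 212 and 148 CPM in WT sedentary libraries. Both sedentary groups spread widely and overlapped. In sedentary mice the log2 fold change of KO over WT was -0.32 (SE 0.13, adjusted p = 0.571), and averaged over exercise it was -0.18 (95% interval -0.38 to 0.01).

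Acot2, the mitochondrial thioesterase next to Acot1 on chromosome 12, had 3.20, 3.88 and 4.16 CPM in KO treadmill, 5.14, 3.90 and 5.32 CPM in KO sedentary, 4.18, 5.97 and 4.89 CPM in WT treadmill and 4.97, 4.55 and 3.38 CPM in WT sedentary libraries. The 3 KO treadmill values lay below the 3 WT treadmill values by a narrow margin, and the log2 fold change there was -0.41 (SE 0.19, adjusted p = 0.735). Acot1 had 0.16, 0.54 and 0.54 CPM in KO treadmill, 0.26, 0.12 and 0.67 CPM in KO sedentary, 0.39, 0.59 and 0.30 CPM in WT treadmill and 0.48, 0.41 and 0.38 CPM in WT sedentary libraries. The KO values of Acot1 ran both lower and higher than all WT values. Both genes share near-identical stretches: 24.5% of the 50-base stretches of Acot2 occur in Acot1, and reads from them could be assigned to either. Acot13 ranged from 92.5 to 127 CPM.

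Of the 5 fasting-responsive genes all but Plin2, whose SD of log2 CPM within groups was 0.13, were among the most variable of the 35. Pdk4 (chr6:5483351-5496309, minus strand) had 764, 238 and 1009 CPM in KO treadmill, 564, 495 and 632 CPM in KO sedentary, 795, 809 and 498 CPM in WT treadmill and 835, 554 and 470.2 CPM in WT sedentary libraries. KO treadmill mice alone held the lowest and the highest value of the 12, a difference that exceeds any between group means. For Pdk4 the log2 fold change was -0.10 for KO over WT averaged over exercise (95% interval -0.66 to 0.46) and 0.21 for treadmill over sedentary averaged over genotype (95% interval -0.34 to 0.77). The second value was 0.00 without KO treadmill replicate 3 and 0.41 without KO treadmill replicate 2, 2 libraries of the same group.

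Ucp3 (chr7:100472990-100486432, plus strand) had 149, 90.9 and 167 CPM in KO treadmill, 130.4, 93.7 and 101 CPM in KO sedentary, 154, 144 and 114 CPM in WT treadmill and 163, 136 and 90.7 CPM in WT sedentary libraries. Every group overlapped every other. Ucp3 had a log2 fold change of -0.14 for KO over WT (95% interval -0.48 to 0.20) and 0.20 for treadmill over sedentary (95% interval -0.14 to 0.54). With 1 library left out at a time the second value ran from 0.10, without WT sedentary replicate 3, to 0.31, without KO treadmill replicate 2.

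**Figure D4:**
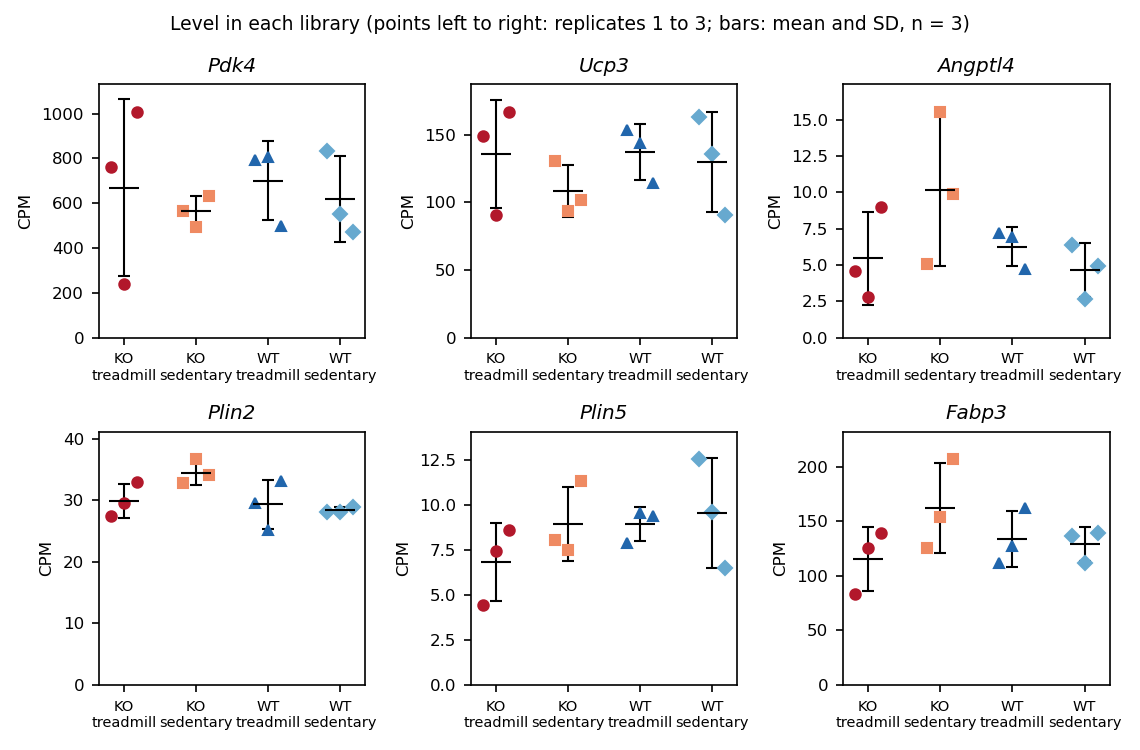
CPM in each library for Pdk4, Ucp3, Angptl4, Plin2, Plin5 and Fabp3 by group, with the mean and SD of 3 libraries. The Pdk4 values of KO treadmill libraries run from 238 to 1009 CPM, and 2 of 3 Angptl4 values of KO sedentary libraries (15.6 and 9.90 CPM) exceed all values of the other groups.

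Angptl4 (chr17:33773750-33781830, minus strand) had 4.57, 2.80 and 9.01 CPM in KO treadmill, 5.10, 15.6 and 9.90 CPM in KO sedentary, 7.20, 6.90 and 4.72 CPM in WT treadmill and 6.41, 2.69 and 4.92 CPM in WT sedentary libraries. KO sedentary replicates 2 and 3 were above all libraries of the other groups, and KO sedentary replicate 1 was within their range. The log2 fold change of KO over WT in sedentary mice was 1.11 (SE 0.41, 95% interval 0.22 to 1.996, adjusted p = 0.559), and 0.67 without KO sedentary replicate 2. It was -0.89 for KO treadmill over KO sedentary (SE 0.41, adjusted p = 0.9999), and the difference between the responses was -1.30 (SE 0.59, adjusted p = 0.9999). Without KO sedentary replicate 2 these values were -0.45 and -0.87, and without KO treadmill replicate 3 they were -1.46 and -1.86.

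KO sedentary replicate 2 also stood apart in the summed level of adipocyte markers, and adipocytes too express Angptl4, Cd36, Lpl and Plin2. The summed level of the 9 measured of 10 adipocyte markers was 289 to 433 CPM in KO treadmill, 365 to 765 CPM in KO sedentary, 387 to 452 CPM in WT treadmill and 276 to 410.4 CPM in WT sedentary libraries, with Ucp1, the brown fat marker, at 0 in all 12. KO sedentary replicate 2 was the library at 765 CPM, with 66.2 CPM of Adipoq, while KO sedentary replicate 3, at 9.90 CPM of Angptl4, had 21.8 CPM of Adipoq. Not every marker was high in KO sedentary replicate 2: Lep had 143 counts there and 302 in KO treadmill replicate 2. Fabp4, which endothelium also expresses, gave the most counts of these markers there, 11297. The summed level of endothelial markers was 271 to 299 CPM in KO sedentary and 222 to 280.5 CPM in WT sedentary libraries. The part of either cell type in these results was not tested.

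Plin2 (chr4:86648386-86670060, minus strand) had 27.4, 29.5 and 32.9 CPM in KO treadmill, 32.7, 36.7 and 34.1 CPM in KO sedentary, 29.5, 25.2 and 33.2 CPM in WT treadmill and 28.2, 28.1 and 28.9 CPM in WT sedentary libraries. The 3 KO sedentary values were above the 3 WT sedentary values, whereas the treadmill groups overlapped. The log2 fold change in sedentary mice was 0.28 (SE 0.10, adjusted p = 0.509). Plin5 ranged from 4.45 CPM in KO treadmill replicate 1 to 12.6 CPM in WT sedentary replicate 1, with an averaged log2 fold change of -0.24 (95% interval -0.62 to 0.13).

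Without the filter on low counts, which brings 26350 genes into the same fit, edgeR called some of these genes at almost the same fold changes. For KO over WT in sedentary mice they were Angptl4 and Acacb, where 1.23% of all genes were called in that fit. For KO treadmill over KO sedentary they were Angptl4 and Fabp3 (0.53% of all genes). The same genes were called for the difference between the responses (0.26% of all genes). Averaged over exercise, Acads, Angptl4 and Mlycd were called for KO over WT (2.15% of all genes). The adjusted p of Angptl4 in sedentary mice was 1.69e-10 in that fit (SE 0.15), against 0.559 with the filter and 0.688 in DESeq2.

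Pdk4 and Ucp3 followed each other across the libraries. Pearson's r of their log2 CPM over the 12 libraries was 0.82 (permutation p = 0.00024, adjusted over 7 relations 0.00168) and Spearman's rho was 0.92 (permutation p = 9e-05, adjusted 0.00063), both two-sided. After leaving out KO treadmill replicates 2 and 3, the libraries farthest from the median of Pdk4, r was 0.83. Without the libraries of lanes 7 and 8 it was 0.79 (permutation p = 0.00194, adjusted 0.0136). For deviations from the group means r was 0.86 (permutation p = 0.00018, adjusted 0.00126). These deviations sum to 0 within each group but were shuffled over all 12 libraries, so that p-value is too small and r is given as a description. Lanes 3 and 4 hold 5 libraries each, too few for a value of their own. The share of all genes that follow Pdk4 this closely was not computed, so the relation cannot be called particular to Ucp3.

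None of the other 6 relations of Pdk4 passed over the 12 libraries. Mlycd came nearest, with r of 0.55 and rho of 0.63 (permutation test, adjusted p = 0.204 and 0.114). For deviations from the group means Mlycd had r of 0.66 (permutation test, adjusted p = 0.0744) and rho of 0.83 (permutation test, adjusted p = 0.00452). The shuffling of deviations across groups makes these p-values too small too, so the rho is not counted as passed. Without the libraries of lanes 7 and 8 Mlycd had r of 0.44 and rho of 0.49, which did not pass (permutation test, adjusted p = 0.472 and 0.514). Angptl4 had r of 0.46, which was 0.05 after leaving out the same 2 libraries. For Plin2 r was -0.17 and became -0.61 without those 2, and for Acot1 it was 0.08 and became 0.34. For Plin5 r was 0.17 and for Acot2 0.24.

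**Figure D5:**
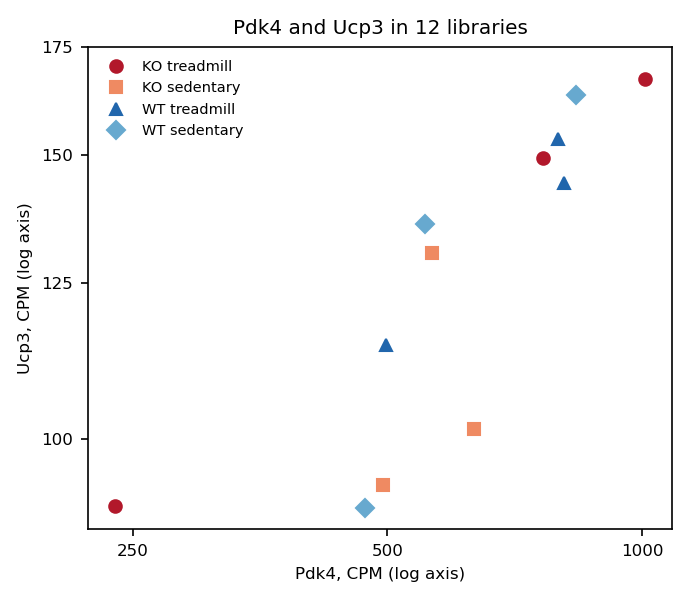
CPM of Pdk4 against CPM of Ucp3 in 12 libraries (both axes log), marked by group. The points of all 4 groups lie along 1 rising band, from KO treadmill replicate 2 (238 and 90.9 CPM) to KO treadmill replicate 3 (1009 and 167 CPM).

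Promoter sequences are shown for 3 of these genes because Ucp3 follows Pdk4 and because Plin2 and Cd36 are lipid-responsive genes whose windows hold a nuclear receptor half-site. RefSeq windows of GRCm38.p6, from 250 bases before to 50 bases after a transcription start, were at hand for 28 of the 35 genes. The window of Cd36 belongs to a start inside the gene as annotated in GENCODE (chr5:17781690-17888801, minus strand), far from its 5′ end. The capitals mark the half-site AGGTCA, or TGACCT where it lies on the strand opposite to the gene, and each stretch reads 5′ to 3′ on the strand of the gene. The stretches are Ucp3 distal (chr7:100472818-100472871, plus strand), Ucp3 proximal (chr7:100472923-100472976, plus strand), Plin2 (chr4:86670248-86670301, minus strand) and Cd36 (chr5:17836095-17836146, minus strand).
Ucp3 distal: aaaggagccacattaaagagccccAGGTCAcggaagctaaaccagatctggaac
Ucp3 proximal: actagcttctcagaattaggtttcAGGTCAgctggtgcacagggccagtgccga
Plin2: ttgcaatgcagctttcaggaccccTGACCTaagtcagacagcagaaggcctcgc
Cd36: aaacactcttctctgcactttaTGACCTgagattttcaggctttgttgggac

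The half-site AGGTCA, on either strand, occurred in the windows of 8 of the 28 genes (28.6%), against 18.1% of 27025 genes with a window. They were Acacb, Acadm, Acadvl, Cd36, Echs1, Plin2, Plin5 and Ucp3. Pdk4 also had a window, and it held no AGGTCA. Longer motifs had 0 matches in the 28 genes: the PPAR-RXR repeat AGGNCANAGGNCA, which holds 2 half-sites of the looser form AGGNCA and occurs in 0.451% of all genes, the extended ERR half-site TCAAGGTCA, which contains AGGTCA (0.466%), and the antioxidant response element core TGACNNNGC (14%). A match is a run of letters and no evidence of binding, and no match says only that these letters are not in the window.

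Beyond the 35, few genes of the pathway passed. Of 16 further genes of uptake, storage and lipolysis, 0 passed in any comparison in either direction in edgeR or in DESeq2, where 0.69% of all genes passed in edgeR for KO over WT averaged over exercise. An unadjusted p under 0.05 was reached in that comparison by 0 of 16 (12.4% of all genes), for KO over WT in sedentary mice by 4 of 16 (7.65%), for KO treadmill over KO sedentary by 4 of 16 (3.76%) and for the difference between the responses by 2 of 16 (1.9%). The 4 genes, named after their values were seen, were Fabp4, Fabp5, Mgll and Plin4 in both comparisons, which share the KO sedentary libraries. In sedentary mice the log2 fold changes of KO over WT were 0.54 for Fabp4, which is also 1 of the adipocyte markers, 0.59 for Fabp5, 0.33 for Mgll and -0.40 for Plin4. Of 28 further genes of activation and oxidation 0 passed in either tool, and an unadjusted p under 0.05 was reached by 2 of 28 averaged over exercise (12.4% of all genes) and by 0 or 1 in each of the other comparisons. In the first list the smallest p for KO over WT averaged over exercise belonged to Plin4, a lipid droplet coat protein, with a log2 fold change of -0.21 (SE 0.10), and to Fabp4, the binding protein of adipocytes and endothelium, with 0.23 (SE 0.13). In the second list they belonged to Acot7, an acyl-CoA thioesterase, with -0.17 (SE 0.07), and to Acad10, an acyl-CoA dehydrogenase family member, with -0.26 (SE 0.12). The averaged median log2 fold changes were -0.02 for both lists, against 0.01 for all genes.

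Of 26 regulators and further targets of PPAR, 24 were measured, and 1 of them passed: Esrra, which encodes ERRα, was lower in KO, and 0 passed as higher. In the averaged comparison this was 1 of 24, against 0.69% of all genes, and in treadmill mice 1 of 24, against 0.162%. An unadjusted p under 0.05 was reached by 5 of 24 averaged over exercise (12.4% of all genes), by 6 of 24 in sedentary mice (7.65%) and by 2 of 24 in treadmill mice (6.72%). Esrra had 68.9, 77.4 and 72.0 CPM in KO treadmill, 82.7, 82.8 and 81.0 CPM in KO sedentary, 97.7, 93.9 and 92.8 CPM in WT treadmill and 99.9, 90.5 and 94.8 CPM in WT sedentary libraries. Every one of the 6 KO libraries lay below every one of the 6 WT libraries. The share of all genes that did so is not given here, so this lack of overlap is a description only. The log2 fold change of KO over WT averaged over exercise was -0.30 (SE 0.05, adjusted p = 0.00968), and it still passed when any single library was left out (adjusted p 0.0095 to 0.0437). DESeq2 called it too. In lane 3 alone it was -0.27 and in lane 4 alone -0.28, neither of which passed with 5 libraries.

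In treadmill mice Esrra fell by 0.38 on the log2 scale (SE 0.07, adjusted p = 0.0459), a call lost without any one of 11 of the 12 libraries (adjusted p up to 0.391) while the log2 fold change stayed between -0.44 and -0.34. In sedentary mice the value was -0.21 (SE 0.07), and the difference between the 2 exercise states, -0.17 (SE 0.10), did not pass. The receptors themselves did not pass: averaged log2 fold changes were -0.02 for Ppara, -0.26 for Ppard, -0.18 for the partner Rxra, 0.21 for the partner Rxrg and 0.16 for Ppargc1a, which encodes PGC-1α. These 5 were named after their values were seen. Ppard averaged 12.9 ± 0.5 CPM in KO treadmill, 13.7 ± 0.8 CPM in KO sedentary, 15.05 ± 0.20 CPM in WT treadmill and 16.7 ± 2.5 CPM in WT sedentary libraries (SD, n = 3 each).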

How the data were processed

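RNA sequencing of 12 mouse muscle samples was analysed from the raw counts per Ensembl gene that the authors deposited. The TruSeq RNA kit v2 of Illumina was used, per the labels' protocols, and it keeps no strand information. Alignment to GRCm38 with STAR 2.4.1d and counting with featureCounts 1.4.6-p4, after bcl2fastq 1.8.4, are named in the submitters' processing notes. Which annotation release, strand setting and handling of multiple matches applied is not given in the sources used here. An RPKM table that the authors also deposited was set aside, because its values do not follow each library's total.

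Symbols, coordinates and exon lengths came from GENCODE M21 (GRCm38), which matched 47310 of 47729 IDs; unmatched genes hold 0.016% of counts. The test was run in edgeR 4.0.16 (R 4.3.3) with filterByExpr (minimum count 10, minimum total 15), TMM, 1 coefficient per group, the quasi-likelihood test with 8 residual degrees of freedom among samples, and Benjamini-Hochberg adjustment over 14194 genes with a threshold of 0.05. Totals of 21232040 to 29990968 counts limit precision for low genes. Scripts were tested on simulated data. Correlations used permutation tests with 100000 resamples (scipy 1.17.1). DESeq2 1.42.0, its size factors, no filter, lane, the replicate block and each library left out served as alternatives.

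The 35 genes and all lists were chosen with earlier results of these data known. Values in every library are given for genes that passed or had an unadjusted p under 0.05, and always for Pdk4, Ucp3, Angptl4, Cd36, Cpt1b, Acot1 and Acot2; the other genes are given by range or by group mean. Of other lists, genes that passed are named, or the 2 with the smallest p. The AGGTCA motif was added after the longer motifs gave no match. Whether shared replicate numbers pair the libraries was checked by correlating deviations from the group means. The 3 same-numbered pairs of WT libraries gave 0.54, 0.30 and 0.26, all over 0.1. They were treated as paired in the alternative fits with a replicate block, and the main fit had no block. The KO pairs gave 0.17, 0.075 and 0.22, and those between genotypes also included a value below 0.1. In the WT groups replicates 2 shared lane 3, replicates 3 shared lane 4 and replicates 1 were in lanes 7 and 8. Pairing and lane therefore cannot be told apart there.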

Additional observations from a re-analysis of the deposited data

How the results depend on the processing

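Of the counts of called genes among the 35, 122 values were the same as reported and 7 moved, each from 0. Without the filter on low counts the count was 2 for KO over WT in sedentary mice, 2 for KO treadmill over KO sedentary, 2 for the difference between responses and 3 for KO over WT averaged over exercise. With lane as a term it was 1 for KO treadmill over KO sedentary, and with DESeq2 it was 1 averaged over exercise. Leaving out each library in turn gave 0 to 1 there. The cause was not tested. The paired analysis, a replicate block over all 12 libraries or over the 6 WT libraries alone, called 0 of the 35 genes in the comparisons and changed no call of a single gene named here; it was not run for the correlations of Pdk4.

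Of the fold changes of single genes, 492 were the same and 14 reversed in sign, all for KO over WT averaged over exercise and none called. In lane 3 alone Cd36 had -0.017. In lane 4 alone Acot1 had 0.82, Acot2 0.12, Ucp3 0.17 and Pdk4 0.37. With lane as a term Ucp3 had 0.018 and Pdk4 0.10, and without lanes 7 and 8 Ucp3 had 0.0032 and Pdk4 0.086. With each library left out Cpt1b ran from -0.10 to 0.00999, Acot1 from -0.61 to 0.050 and Pdk4 from -0.32 to 0.094. The median over the 35 genes was -0.12 in lane 3 alone, with 3 genes above 0, and 0.05 in lane 4 alone, with 21 above 0.

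Over all genes, calls for KO over WT averaged over exercise were 98 as reported, 235 with DESeq2, 264 with lane as a term, 217 with the replicate block, 158 without lanes 7 and 8, 86 in lane 3 alone, 49 in lane 4 alone, 567 without the filter, and 54 (without KO sedentary replicate 2) to 160 (without WT sedentary replicate 3) with each library left out. In sedentary mice 27 became 72, 81, 42, 35 and 323, and in treadmill mice 23 became 55, 103, 40, 37 and 207, for DESeq2, lane, block, no lanes 7 and 8, and no filter. With each library left out they ran from 16 to 36 in sedentary mice and from 15 to 30 in treadmill mice. Treadmill comparisons called 0, but 1 averaged with DESeq2, 1 in WT mice with the block in the 6 WT libraries, 26 in KO mice and 28 averaged with lane, and 139 in KO mice, 33 in WT mice, 91 averaged and 68 for the difference between responses without the filter. Depth limits Acot1, with 3 to 18 counts per library.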
